A study of Mus musculus with 36 samples.

Results

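The passage of mouse embryonic stem cells (ESCs) to neural stem cells (NSCs) without TET enzymes was followed in 4 RNA-seq libraries of Tet triple knockout (TKO) cells, out of 10 RNA-seq samples and 36 samples in the whole series. The members were chosen by genotype and cell type from the labels: 2 TKO NSC and 2 TKO ESC libraries, which carry the same clone codes, c2 and h7, in both cell types. Both cell types carry the loss of Tet1, Tet2 and Tet3, so every TKO comparison here is between cell types within the knockout. The matching transition of the wildtype (WT) was measured in 3 WT NSC and 3 WT ESC libraries. All lines were male V6.5 cells of mixed 129/C57BL/6 strain. NSCs were harvested on day 6 of NSC culture, at passage 1. ESCs were preplated for 45 minutes to remove feeder cells and were then grown for 24 hours on gelatin with serum and LIF. Each TKO group is 2 clones, and the sources used here do not say how the alleles were made.

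ESCs are held in pluripotency by a network around OCT4 (Pou5f1), SOX2 and NANOG, and naive ESCs also express factors such as ESRRB and REX1 (Zfp42). When they become neural stem cells, this network is shut down, E-cadherin gives way to N-cadherin, and genes of neuroepithelium and radial glia such as Nes, Sox1, Pax6 and Fabp7 come on. TET enzymes oxidize 5-methylcytosine, mostly at CG dinucleotides, a step through which DNA methylation can be removed at promoters and enhancers. The series asks what these enzymes contribute to the specification of neural stem cells.

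The TKO libraries held 41.0 M to 49.1 M recovered reads, the range of all 10 libraries. Levels are normalized reads on a common scale of the 4 TKO libraries, given for clone c2 first and clone h7 second, and were not divided by gene length. Changes are log2(value + 1) differences, NSC minus ESC, with the standard error (SE) and the Benjamini-Hochberg adjusted p of limma in which clone is a block. Of 15330 genes tested, 69.5% passed an adjusted p of 0.05: 5388 were higher (35.1%) and 5265 lower (34.3%) in TKO NSCs. At least 2-fold changes were passed by 3682 genes (24.0%) upward and 2991 (19.5%) downward. The split depends on the scaling: with equal library totals the median of all genes moved from 0.0056 to 0.39 (log2), and 64.8% of calls, instead of 50.6%, were higher. A gene had to be listed in both cell types to be tested. A bulk library cannot tell apart fewer cells of a type and less RNA per cell.

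Because TET enzymes act at CG dinucleotides, promoter sequences are shown for 4 genes that stand for the main behaviours described below. Zfp42 had the largest fall and Fabp7 one of the largest rises, Sox1 rose in both genotypes, and Olig2 fell in TKO cells. Each is the 250 bases before the start of the gene in RefSeq (build GRCm38.p6), on the strand of the gene, with CG in capitals.
Zfp42: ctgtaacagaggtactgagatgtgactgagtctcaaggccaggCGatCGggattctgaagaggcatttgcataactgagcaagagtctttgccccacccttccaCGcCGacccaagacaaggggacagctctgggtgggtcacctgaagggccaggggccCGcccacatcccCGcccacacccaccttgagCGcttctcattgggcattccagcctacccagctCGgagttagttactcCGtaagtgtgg
Fabp7: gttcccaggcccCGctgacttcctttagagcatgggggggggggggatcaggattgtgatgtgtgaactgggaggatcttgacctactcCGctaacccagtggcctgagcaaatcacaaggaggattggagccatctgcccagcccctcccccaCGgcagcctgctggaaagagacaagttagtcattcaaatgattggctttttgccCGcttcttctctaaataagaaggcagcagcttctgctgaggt
Sox1: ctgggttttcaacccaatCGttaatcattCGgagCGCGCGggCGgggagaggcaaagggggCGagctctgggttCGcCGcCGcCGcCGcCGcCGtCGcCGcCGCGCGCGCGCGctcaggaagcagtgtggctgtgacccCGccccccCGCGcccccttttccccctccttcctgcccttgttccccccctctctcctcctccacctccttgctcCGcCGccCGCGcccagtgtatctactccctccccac
Olig2: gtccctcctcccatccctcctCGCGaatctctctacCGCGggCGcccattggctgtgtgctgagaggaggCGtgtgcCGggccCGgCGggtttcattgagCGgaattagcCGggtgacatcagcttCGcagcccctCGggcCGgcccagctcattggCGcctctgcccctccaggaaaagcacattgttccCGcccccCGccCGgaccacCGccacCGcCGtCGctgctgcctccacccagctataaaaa
The windows are at chr8:43307010-43307259, minus strand (Zfp42), at chr10:57784673-57784922, plus strand (Fabp7), at chr8:12395269-12395518, plus strand (Sox1) and at chr16:91225300-91225549, plus strand (Olig2). Against a median of 6 CG in 32851 such windows, Fabp7 had 4 and Zfp42 had 9, while Olig2 had 22 and Sox1 had 29. At least as many were present in 40.3% of windows for Zfp42, 62.2% for Fabp7, 6.78% for Sox1 and 14.8% for Olig2. The counts describe these letters, and their methylation was not analysed here.

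The targeted genes were examined in each library. Tet1, a TET gene active in ESCs, had 452 and 504 in TKO NSCs, against 5607 and 5921 in TKO ESCs (log2 change -3.59, SE 0.12, adjusted p = 8.9e-10). Tet2 had 1003 and 1366 in TKO NSCs, against 2057 and 1980 in TKO ESCs (log2 change -0.79, SE 0.15, adjusted p = 0.00049). Tet3, the TET gene of neural progenitors and neurons, had 2081 and 2280 in TKO NSCs, against 246 and 179.9 in TKO ESCs (log2 change 3.37, SE 0.20, adjusted p = 4.6e-08). Transcripts of all 3 knocked-out genes were thus still counted, with Tet1 and Tet2 lower and Tet3 higher in TKO NSCs, in both clones and without overlap. On the 10-library scale Tet1 changed by -3.60 in TKO and -4.29 in WT, Tet2 by -0.79 in TKO and -1.49 in WT and Tet3 by 3.36 in TKO and 2.87 in WT. Counts over a whole gene do not show whether a shortened or nonfunctional transcript is made, so these values do not check the genotype.

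TKO cells lost the pluripotency program in both clones. Of the naive pluripotency genes, all 12 tested fell, with a median log2 change of -6.96, and the other 4 (Nr0b1, Prdm14, Dppa3, Tcl1) were listed in ESCs alone. Of the core factors and effectors, all 15 tested fell (14 with equal library totals), with a median of -5.19, beside a median of 0.0056 over all genes. The smallest fall in the core list was -0.58. Zfp42, which encodes REX1, had 48.2 and 8.57 in TKO NSCs, against 19999 and 20583 in TKO ESCs (log2 change -9.87, SE 0.41, adjusted p = 3.5e-09). Esrrb, an orphan nuclear receptor of naive ESCs, had 95.6 and 51.4 in TKO NSCs, against 28307 and 26228 in TKO ESCs (log2 change -8.58, SE 0.17, adjusted p = 5.5e-11). Both genes were abundant in each ESC library and nearly lost in each NSC library. Nanog had 445 and 195 in TKO NSCs, against 28616 and 26227 in TKO ESCs (log2 change -6.53, SE 0.19, adjusted p = 3.1e-10). Pou5f1, the gene of OCT4, had 2664 and 1449 in TKO NSCs, against 79327 and 65196 in TKO ESCs (log2 change -5.19, SE 0.12, adjusted p = 9.5e-11). In all 4 genes the c2 NSC library was above the h7 NSC library, and both were far below either ESC library. Dppa5a, an RNA-binding protein gene of pluripotent cells, Tdh, the threonine dehydrogenase of mouse ESCs, Fbxo15 and Fgf4 had log2 changes of -8.85, -8.35, -7.96 and -7.71. Sox2, which pluripotent and neural stem cells share, fell least among the genes whose changes are given here, with 5800.4 and 7512 in TKO NSCs, against 26542 and 25982 in TKO ESCs (log2 change -1.99, SE 0.10, adjusted p = 1.7e-08).

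The fall was smaller than in WT for part of this program. The test of the difference passed for 13 of 15 core genes with a change higher in TKO and for 1 with a lower one, and for 6 and 2 of 12 naive genes, beside 10.3% and 10.04% of 15381 genes tested. The median change of the core list was -7.79 in WT and that of the naive list -8.60. Pou5f1 changed by -5.20 in TKO and -7.75 in WT (difference 2.55, SE 0.30, adjusted p = 4.8e-05). On the 10-library scale Pou5f1 had 2606 and 1404 in TKO NSCs, against 77537 and 63939 in TKO ESCs, and 242, 276 and 363 in WT NSCs, against 53982, 63704 and 70889 in WT ESCs. Both TKO NSC libraries thus had more Pou5f1 reads than the 3 WT NSC libraries. Gdf3, a TGF-beta family ligand of pluripotent cells, differed by 4.94, SE 0.71, adjusted p = 0.00024, and Dnmt3l, a cofactor of the de novo methyltransferases, by 4.20, SE 0.28, adjusted p = 3e-07. For Dppa2, a chromatin factor of early embryos, the level was 49.02 and 29.1 in TKO NSCs, against 6119.5 and 4862 in TKO ESCs, and WT NSCs had 0 reads. Against a floor of 3 reads over the group, Dppa2 was thus 5175-fold lower in WT NSCs than in WT ESCs. Sox2 went the other way and differed by -1.33, SE 0.13, adjusted p = 8.2e-06. Nanog differed by 1.91, SE 0.52, adjusted p = 0.018, and this call was lost, at 1.31 to 1.84 (adjusted p = 0.055 to 0.10) without clone h7 in TKO ESCs or clone c2 in TKO NSCs. Esrrb and Zfp42 did not pass, with differences of 0.16 (adjusted p = 0.79) and 1.68 (adjusted p = 0.083). For Zfp42, which lies on chromosome 8, the difference rests on single libraries: it was 0.49 (adjusted p = 0.35) without clone c2 in TKO NSCs and 2.86 (adjusted p = 2.3e-05) without clone h7 in TKO NSCs. With edgeR it was 2.34 (adjusted p = 0.021), and with a block by line it passed (adjusted p = 0.047).

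**Figure D1:**
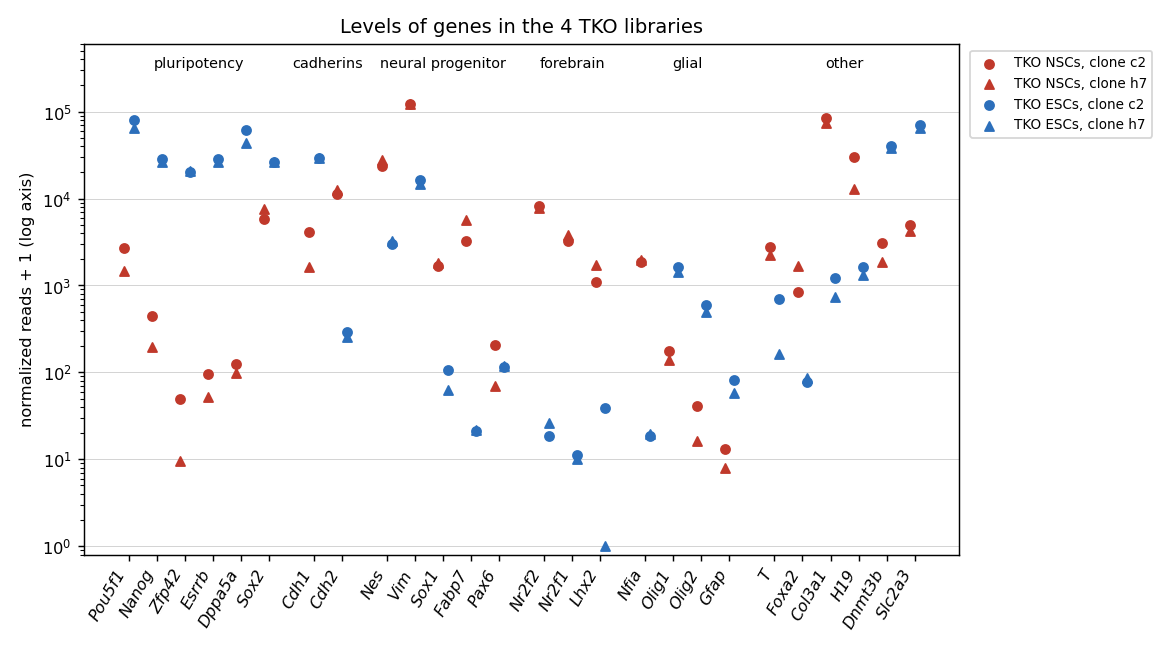
Normalized reads plus 1 (log axis) of genes in the 4 TKO libraries, with NSCs in red left of ESCs in blue, clone c2 as circles and clone h7 as triangles. Pluripotency genes other than Sox2 lie far lower in NSCs, and Sox2 is lower by less. Cdh2, Nes, Fabp7, Nr2f1 and Nfia lie higher, while Pax6 overlaps between the cell types and Olig1, Olig2 and Gfap are lower in NSCs.

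Epithelial genes fell with pluripotency. Of the trophoblast and epithelium list, 1 rose and 14 fell of 18 tested, with a median of -3.48. Fewer of them passed as lower without clone c2 in TKO ESCs and the clone block. The list's summed level was 5028 to 9709 in TKO NSCs, against 66782 to 72088 in TKO ESCs. Cdh1, the gene of E-cadherin, had 4084 and 1626 in TKO NSCs, against 29585 and 29505 in TKO ESCs (log2 change -3.52, SE 0.22, adjusted p = 7e-08). Cdh2, the gene of N-cadherin, had 11306 and 12653 in TKO NSCs, against 292 and 257 in TKO ESCs (log2 change 5.45, SE 0.13, adjusted p = 9.5e-11). The cadherins thus moved in opposite directions in both clones, with Cdh1 higher in the c2 than in the h7 NSC library. Esrp1, a splicing factor of epithelia, had 206 and 59.1 in TKO NSCs, against 5919 and 5429 in TKO ESCs, Grhl2 had 77.1 and 47.98 in TKO NSCs, against 2848 and 2413 in TKO ESCs, and Cldn4, a tight junction protein gene, had 233 and 77.1 in TKO NSCs, against 6974 and 4664 in TKO ESCs. Their log2 changes were -5.67, -5.41 and -5.40. Cdh1 changed by -3.53 in TKO and -6.95 in WT (difference 3.42, SE 0.35, adjusted p = 1.7e-05). It lies on chromosome 8, and after centring the libraries by chromosome its difference was 3.07 (adjusted p = 3e-05). On the 10-library scale Cdh1 had 3996 and 1575 in TKO NSCs, against 28917 and 28937 in TKO ESCs, and 263, 318 and 306 in WT NSCs, against 41033, 34527 and 34570 in WT ESCs. Cdh2 changed by 5.44 in TKO and 5.32 in WT and did not pass the test of the difference (0.12, SE 0.15, adjusted p = 0.63). Among primed epiblast genes, 2 rose and 8 fell of 13 tested, with log2 changes of -4.68 for Foxd3, -3.18 for Lef1 and -2.89 for Cldn6. The list counts stand beside 35.1% higher and 34.3% lower over all genes.

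Most neural stem cell genes were induced without TET. Of the neural stem and radial glia list, 17 rose and 2 fell of 23 tested with a median of 1.71, beside 35.1% higher and 34.3% lower over all genes. Nes, an intermediate filament gene of neural progenitors, had 23450 and 27805 in TKO NSCs, against 3022 and 3254 in TKO ESCs (log2 change 3.03, SE 0.086, adjusted p = 3e-10). Vim, another intermediate filament gene, had 123500 and 123010 in TKO NSCs, against 16161 and 14875 in TKO ESCs (log2 change 2.99, SE 0.086, adjusted p = 3e-10). Fabp7, the fatty acid binding protein of radial glia, had 3260.2 and 5593 in TKO NSCs, against 20.3 and 20.6 in TKO ESCs (log2 change 7.64, SE 0.28, adjusted p = 1.7e-09). All 3 were higher in each NSC library than in each ESC library. Sox1, an early neuroectoderm factor, had 1655 and 1827 in TKO NSCs, against 106 and 61.9 in TKO ESCs (log2 change 4.40, SE 0.27, adjusted p = 6.6e-08), and Ptprz1, a receptor phosphatase of radial glia, had 706 and 971 in TKO NSCs, against 12.7 and 38.96 in TKO ESCs (log2 change 5.15, SE 0.40, adjusted p = 4.4e-07). Pax6, a regulator of cortical radial glia, stood apart from them with 205 and 68.5 in TKO NSCs, against 114 and 118 in TKO ESCs (log2 change 0.032, SE 0.46, adjusted p = 0.96). Its clones went opposite ways, 0.84 in c2 and -0.78 in h7, and the cell types overlapped.

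Induction of this list was lower than in WT for many members. The median was 2.94 in WT, and 13 of 23 genes passed with a change lower in TKO and the other 10 did not pass, beside 10.04% of all genes. Pax6 changed by 0.024 in TKO and 4.46 in WT (difference -4.44, SE 0.47, adjusted p = 2e-05). It had 200.5 and 66.4 in TKO NSCs, against 112 and 116 in TKO ESCs, and 2439, 2219 and 2447 in WT NSCs, against 106, 114 and 99.2 in WT ESCs, on the 10-library scale. Vim differed by -1.16, SE 0.095, adjusted p = 2.3e-06. The differences of Nes (-0.44, SE 0.12, adjusted p = 0.02), Fabp7 (-1.89, SE 0.43, adjusted p = 0.0071) and Sox1 (-2.58, SE 0.77, adjusted p = 0.028) passed in limma with all 10 libraries but not without some of them. The difference for Nes was -0.33 to -0.39 (adjusted p = 0.05 to 0.12) without clone h7 in TKO ESCs, clone c2 in TKO NSCs or WT line 1 in NSCs. For Fabp7 it was -1.50 (adjusted p = 0.053) without clone c2 in TKO NSCs, and -1.79 (adjusted p = 0.081) with edgeR on all 10. For Sox1 it was -2.19 to -2.65 (adjusted p = 0.056 to 0.10) without clone c2 in TKO ESCs, clone c2 in TKO NSCs, clone h7 in TKO NSCs, WT line 1 in NSCs or WT line 3 in NSCs. Sox1 lies on chromosome 8, where the median difference was 0.38, and its value after centring was -2.94 (adjusted p = 0.014).

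**Figure D2:**
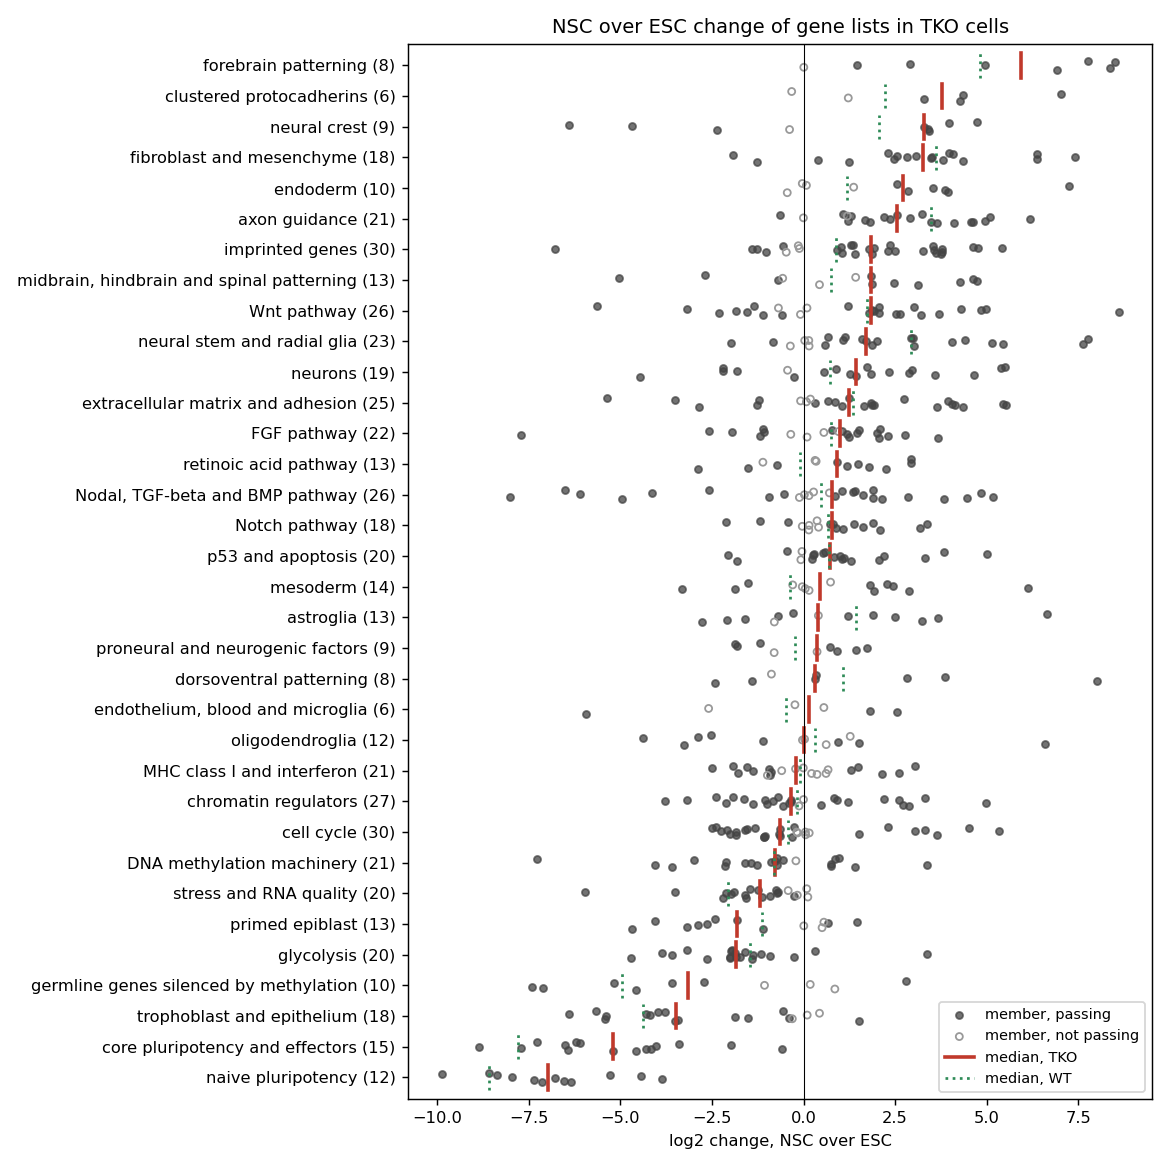
Log2 NSC over ESC change of the members of each gene list in TKO cells (filled: adjusted p under 0.05, open: not passing), with the list's median in TKO (red bar) and in WT (dotted green bar), and the number tested in parentheses. Medians run from -6.96 for naive pluripotency to 5.94 for forebrain patterning, and all 12 naive and 15 core pluripotency genes lie left of 0.

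Forebrain patterning genes were among the largest rises. Of this list, 7 of 8 tested rose (median 5.94 in TKO and 4.83 in WT), and 6 more were listed in NSCs alone. Nr2f1, the gene of the orphan receptor COUP-TFI, had 3271 and 3773 in TKO NSCs, against 10.1 and 9.17 in TKO ESCs (log2 change 8.37, SE 0.32, adjusted p = 2.2e-09). Nr2f2, its relative COUP-TFII, had 8299.6 and 7782 in TKO NSCs, against 17.7 and 25.2 in TKO ESCs (log2 change 8.50, SE 0.24, adjusted p = 2.8e-10). Each of the pair was near absent in both ESC libraries and high in both NSC libraries. Lhx2, a LIM homeobox factor of forebrain and eye, had 1091 and 1706 in TKO NSCs, against 38.02 and 0 in TKO ESCs, and its change of 7.77 was 5.13 (adjusted p = 8.2e-05) without clone h7 in TKO ESCs. Of the dorsoventral patterning list, 5 rose and 2 fell of 8 tested (median 0.32 in TKO and 1.07 in WT), 6 more were listed in NSCs alone, and only 3 rose without the clone block. Over all genes, 35.1% were higher and 34.3% lower. Nkx6-2, a ventral progenitor factor, had 24.1 and 25.7 in TKO NSCs, against 174 and 110 in TKO ESCs (log2 change -2.43, SE 0.52, adjusted p = 0.0015). Zic1, a zinc finger factor of dorsal neural tissue, had 4639 and 3708 in TKO NSCs, against 45.6 and 4.58 in TKO ESCs (log2 change 8.01, SE 0.50, adjusted p = 7.4e-08). Foxa2, a factor of floor plate and endoderm, had 850.2 and 1665 in TKO NSCs, against 76.05 and 84.8 in TKO ESCs (log2 change 3.87, SE 0.28, adjusted p = 2.6e-07). Its change differed from WT by 2.58, SE 0.34, adjusted p = 0.00012. On the 10-library scale Foxa2 had 832 and 1613 in TKO NSCs, against 74.3 and 83.2 in TKO ESCs. In WT it had 772, 1011 and 991 in NSCs, against 403, 388 and 343 in ESCs. The NSC levels of the genotypes thus overlapped, and the ESC level was lower in TKO. Lmx1a, a factor of roof plate and midbrain dopaminergic progenitors, rose by 2.82 and differed by -4.59, SE 1.00, adjusted p = 0.005. On the 10-library scale it had 186 and 236 in TKO NSCs, against 29.7 and 28.1 in TKO ESCs. In WT it had 706, 669 and 587 in NSCs, against 9.05, 4.73 and 0 in ESCs. With WT ESCs this near 0, the difference depends on the pseudocount and was -3.56 with a pseudocount of 5.

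Of midbrain, hindbrain and spinal genes, 7 rose and 3 fell of 13 tested (median 1.83), beside 35.1% higher and 34.3% lower over all genes. Irx1, an Iroquois homeobox gene, had 908 and 1607 in TKO NSCs, against 65.9 and 34.4 in TKO ESCs (log2 change 4.64, SE 0.39, adjusted p = 8.3e-07), and Pax2, a factor of the midbrain-hindbrain boundary, had 134 and 134 in TKO NSCs, against 7.61 and 4.58 in TKO ESCs (log2 change 4.28, SE 0.67, adjusted p = 0.00013). Fgf17, a ligand of the midbrain-hindbrain boundary, had 60.3 and 27.4 in TKO NSCs, against 1337 and 1427 in TKO ESCs (log2 change -5.05, SE 0.34, adjusted p = 1.4e-07). Irx1 and Pax2 were thus higher and Fgf17 lower in both NSC libraries. Of 2390 genes listed in NSCs alone, the 6 with the highest TKO levels included 4 patterning genes. Shh, the ventral morphogen, had 3190.3 and 6541 in TKO NSCs, and Six3, a rostral forebrain factor, had 3905 and 5467. Nkx2-1, a factor of ventral forebrain, had 2843 and 4622, and Aldh1a3, which makes retinoic acid, had 1783 and 1504. Six3os1 (7382 and 10421) is the antisense partner of Six3, and the sources used here do not say whether counting used strand. Cdh6, a cadherin, had 2467 and 3459. Of 1655 genes listed in ESCs alone, the highest in TKO were Nr0b1 (6288 and 6217) and Dppa3 (5844 and 4752), both naive pluripotency genes, then Zfp988 (3181 and 2765), Zfp980 (2714 and 2823), Calcoco2 (2644 and 2747) and Tcl1 (2775 and 2488). No fold is given for genes of one table, since low genes were not listed there.

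Glial genes were called about as often as all genes (35.1% higher and 34.3% lower). Of the astroglia list, 6 rose and 5 fell of 13 tested (3 fell with equal totals), and 5 more were listed in NSCs alone. Nfia, a nuclear factor at the start of gliogenesis, had 1856 and 1986 in TKO NSCs, against 17.7 and 18.3 in TKO ESCs (log2 change 6.66, SE 0.32, adjusted p = 9.8e-09). Nfix, of the same family, had 2302 and 1882 in TKO NSCs, against 219 and 225 in TKO ESCs (log2 change 3.22, SE 0.18, adjusted p = 3.5e-08). Gfap, the astrocyte filament gene, had 12.1 and 6.85 in TKO NSCs, against 79.9 and 57.3 in TKO ESCs (log2 change -2.76, SE 0.70, adjusted p = 0.0041). The nuclear factors were thus higher and Gfap lower in both NSC libraries. Olig2, a factor of motor neuron and oligodendrocyte progenitors, had 40.2 and 15.4 in TKO NSCs, against 592 and 494 in TKO ESCs (log2 change -4.38, SE 0.42, adjusted p = 2.6e-06). Olig1, its neighbour and relative, had 177 and 139 in TKO NSCs, against 1614 and 1425 in TKO ESCs (log2 change -3.27, SE 0.21, adjusted p = 8.5e-08). For both genes, each NSC library lay below each ESC library. Against WT, the change of Olig2 was -4.39 in TKO and 0.50 in WT (difference -4.89, SE 0.46, adjusted p = 6.4e-06). With all 10 libraries scaled together, Olig2 had 39.3 and 14.9 in TKO NSCs, against 579 and 484 in TKO ESCs, and 703, 961 and 1261 in WT NSCs, against 658, 723 and 627 in WT ESCs. Olig1 differed by -2.39, SE 0.25, adjusted p = 2e-05 and Gfap by -3.61, SE 0.91, adjusted p = 0.012. Nfix, on chromosome 8, differed by -2.15, SE 0.23, adjusted p = 2.4e-05, and by -2.50 (adjusted p = 6.6e-06) after centring. In the oligodendroglia list, 3 rose and 5 fell of 12 tested. Myrf, a regulator of myelin genes, fell by 2.89. Nkx2-2, a ventral progenitor factor, rose by 6.59 with 301 and 838 in TKO NSCs, against 0 and 26.4 in TKO ESCs, a change that was 4.20 (adjusted p = 0.0022) without clone c2 in TKO ESCs.

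Neuronal genes rose more often than they fell: of the neuron list, 13 rose and 5 fell of 19 tested (median 1.45), beside 35.1% higher and 34.3% lower over all genes. Their summed level was 25114 to 28355 in TKO NSCs, against 27890 to 30024 in TKO ESCs, so the list's total was not higher. Gad2, an enzyme of GABA synthesis, had 460.5 and 495 in TKO NSCs, against 10.1 and 9.17 in TKO ESCs (log2 change 5.49, SE 0.48, adjusted p = 1.2e-06). Syt1, a synaptic vesicle protein gene, had 657 and 918 in TKO NSCs, against 7.61 and 38.96 in TKO ESCs (log2 change 5.39, SE 0.47, adjusted p = 1.1e-06), and Snap25, a synaptic SNARE gene, had 624 and 735 in TKO NSCs, against 22.8 and 29.8 in TKO ESCs (log2 change 4.65, SE 0.37, adjusted p = 5.3e-07). Nefh, a neurofilament gene, went the other way with 166 and 153 in TKO NSCs, against 3166 and 3986 in TKO ESCs (log2 change -4.47, SE 0.18, adjusted p = 3.2e-09). Tubb3, a tubulin gene often used as a neuron marker, had 3081 and 2889 in TKO NSCs, against 3382 and 3740 in TKO ESCs (log2 change -0.25, SE 0.10, adjusted p = 0.049). Tubb3 no longer passed in 9 of 15 alternatives, and in one more, equal totals, it did not pass and its change was 0.13, in the other direction. Of the proneural and neurogenic genes, 4 rose and 3 fell of 9 tested (1 fell without clone c2 in TKO ESCs and the clone block), with Insm1 at 720.0 and 972 in TKO NSCs, against 281 and 345 in TKO ESCs (log2 change 1.42, SE 0.20, adjusted p = 6.4e-05).

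Markers of other cell types were also measured, and their counts stand beside 35.1% higher and 34.3% lower over all genes. Of fibroblast and mesenchyme genes, 16 rose and 2 fell of 18 tested (median 3.27 in TKO and 3.61 in WT). Their summed level was 185940 to 228090 in TKO NSCs, against 43823 to 48586 in TKO ESCs, and no member was at 0 reads in any group. Col3a1, a fibrillar collagen gene, had 85366 and 73479 in TKO NSCs, against 1223 and 745 in TKO ESCs (log2 change 6.37, SE 0.11, adjusted p = 2.1e-11) and differed from WT by 1.88, SE 0.23, adjusted p = 7.4e-05. Dcn, a small proteoglycan gene, had 2192 and 3121 in TKO NSCs, against 10.1 and 20.6 in TKO ESCs (log2 change 7.40, SE 0.32, adjusted p = 4.8e-09). Of endoderm genes, 6 of 10 tested rose, led by Foxa1, a forkhead factor also of ventral neural tube, with 2087 and 3927 in TKO NSCs, against 22.8 and 13.8 in TKO ESCs (log2 change 7.26, SE 0.38, adjusted p = 2e-08). Of mesoderm genes, 6 rose and 3 fell of 14 tested (none fell without clone c2 in TKO ESCs and the clone block), with a summed level of 8041 to 8518 in TKO NSCs, against 1141 to 2273 in TKO ESCs. T, the gene of Brachyury, had 2773 and 2245 in TKO NSCs, against 695 and 163 in TKO ESCs, and its change of 2.89 was 1.84 (adjusted p = 0.00026) without clone h7 in TKO ESCs. The WT change of T was -0.81 (difference 3.69, SE 0.56, adjusted p = 0.00038). Foxc1, a forkhead factor of mesoderm and crest, had 4031 and 4598 in TKO NSCs, against 81.1 and 45.8 in TKO ESCs (log2 change 6.12, SE 0.25, adjusted p = 3.5e-09). Foxc1 and T made up most of the mesoderm sum in TKO NSCs. That sum was also higher in WT NSCs, at 4105 to 4678, than in WT ESCs, at 2827 to 3587. Of neural crest genes, 5 rose and 3 fell of 9 tested: Twist1 and Ets1 rose by 4.74 and 3.98, and Tfap2c fell by 6.40. The crest list's summed level was 17694 to 19836 in TKO NSCs, against 33278 to 33764 in TKO ESCs. The part of other cell types in the results was not tested.

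Among signalling genes, Wnt, Nodal, FGF and retinoic acid genes showed large changes. Of Wnt pathway genes, 15 rose and 8 fell of 26 tested, beside 35.1% higher and 34.3% lower over all genes. Frzb, a secreted Wnt antagonist, had 1806 and 1804 in TKO NSCs, against 0 and 20.6 in TKO ESCs (log2 change 8.60, SE 0.80, adjusted p = 2e-06). Fzd1, a Wnt receptor, had 3502 and 2999 in TKO NSCs, against 134 and 93.96 in TKO ESCs (log2 change 4.84, SE 0.19, adjusted p = 2.7e-09), and Rspo3, which strengthens Wnt signals, had 318 and 319 in TKO NSCs, against 13.9 and 5.73 in TKO ESCs (log2 change 4.99, SE 0.55, adjusted p = 8.3e-06). Notum, an enzyme that inactivates Wnt proteins, fell instead, with 37.8 and 24.8 in TKO NSCs, against 1538 and 1621 in TKO ESCs (log2 change -5.64, SE 0.31, adjusted p = 3e-08). Lef1, a transcription factor of the pathway, had 310.2 and 239 in TKO NSCs, against 2084 and 2945 in TKO ESCs (log2 change -3.18, SE 0.21, adjusted p = 1.1e-07). Notum and Lef1 fell more than in WT, with differences of -4.55, SE 0.28, adjusted p = 2.1e-07 and -1.94, SE 0.24, adjusted p = 7.6e-05. In this list 12 of 27 genes had a change lower in TKO and 6 a higher one, beside 10.04% and 10.3% of all genes.

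Of Nodal, TGF-beta and BMP genes, 13 rose and 8 fell of 26 tested. This count and those of the next lists stand beside 35.1% higher and 34.3% lower over all genes. Lefty2, a Nodal inhibitor and target, had 32.1 and 20.6 in TKO NSCs, against 6524 and 7268 in TKO ESCs (log2 change -8.01, SE 0.25, adjusted p = 4.8e-10). Nog, a BMP antagonist, had 929 and 1104 in TKO NSCs, against 30.4 and 24.1 in TKO ESCs (log2 change 5.17, SE 0.35, adjusted p = 1.3e-07). Of FGF genes, 12 rose and 6 fell of 22 tested. Fgf4, the autocrine ligand of ESCs, had 17.7 and 17.1 in TKO NSCs, against 3879.8 and 3851 in TKO ESCs (log2 change -7.71, SE 0.27, adjusted p = 1.3e-09), and Etv5, a transcriptional target of FGF signals, had 5536 and 4954 in TKO NSCs, against 30846 and 32230 in TKO ESCs (log2 change -2.59, SE 0.088, adjusted p = 9.8e-10). Fgfr3, a receptor, had 517 and 1274 in TKO NSCs, against 45.6 and 85.9 in TKO ESCs (log2 change 3.67, SE 0.30, adjusted p = 6.7e-07). The ligand and the target were thus lower and the receptor higher in TKO NSCs. Of Notch genes, 10 rose and 3 fell of 18 tested: Maml2, a coactivator, and Dtx4 rose by 3.36 and 3.18, and Rbpj, the DNA-binding partner of Notch, fell by 2.10. Of retinoic acid genes, 7 rose and 3 fell of 13 tested. Cyp26a1, which degrades retinoic acid, had 391 and 224 in TKO NSCs, against 58.3 and 24.1 in TKO ESCs (log2 change 2.94, SE 0.41, adjusted p = 5.6e-05), while WT changed by -2.91 (difference 5.85, SE 0.58, adjusted p = 1e-05). Of axon guidance genes, 18 rose and 1 fell of 21 tested: Sema3a, Slit2 and Nrp1, a ligand, another ligand and a receptor, rose by 6.19, 5.10 and 4.96.

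DNA methylation genes mostly fell. Of this list, 6 rose and 14 fell of 21 tested, beside 35.1% higher and 34.3% lower over all genes. Dnmt3b, a de novo methyltransferase of early embryos, had 3075 and 1855 in TKO NSCs, against 40562 and 38602 in TKO ESCs (log2 change -4.05, SE 0.13, adjusted p = 6.1e-10). Its partner Dnmt3l had 135 and 97.7 in TKO NSCs, against 18232 and 17358 in TKO ESCs (log2 change -7.26, SE 0.14, adjusted p = 3.7e-11). Dnmt3a, the other de novo methyltransferase, had 7450.2 and 7699 in TKO NSCs, against 13092 and 14733 in TKO ESCs (log2 change -0.87, SE 0.085, adjusted p = 2.8e-06). All 3 fell in both clones, Dnmt3a by far less. Dnmt3b fell less than in WT, with changes of -4.06 in TKO and -6.48 in WT (difference 2.42, SE 0.23, adjusted p = 6.6e-06), while the difference for Dnmt3a was 0.0022, SE 0.10, adjusted p = 0.99. Of 30 germline genes that promoter methylation is known to silence, 1 rose and 6 fell of 10 tested, 16 were listed in ESCs alone and were not tested, and 4 were in neither table. Tex19.1, a germline and placenta gene, had 30.5 and 42.8 in TKO NSCs, against 4809 and 8470 in TKO ESCs (log2 change -7.42, SE 0.21, adjusted p = 3e-10). With 0 reads in WT NSCs, Tex19.1 was 2148-fold lower there than in WT ESCs, against a floor of 3 reads over the group. Trap1a, an X-linked gene, had 171 and 161 in TKO NSCs, against 5931 and 6060.3 in TKO ESCs (log2 change -5.17, SE 0.15, adjusted p = 3e-10) and differed from WT by 4.87, SE 0.92, adjusted p = 0.002. Ddx4, a germ cell helicase, fell by 4.59.

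Imprinted genes rose, and often more than in WT. Of this list, 22 rose and 5 fell of 30 tested (median 1.83 in TKO and 0.88 in WT), beside 35.1% higher and 34.3% lower over all genes. Against WT, 15 of 30 had a change higher in TKO and 1 a lower one, beside 10.3% and 10.04% of all genes. H19, a maternally expressed noncoding RNA, had 30129 and 12713 in TKO NSCs, against 1625 and 1318 in TKO ESCs (log2 change 3.74, SE 0.17, adjusted p = 6.6e-09). Nnat, a paternally expressed membrane protein gene, had 21806 and 20221 in TKO NSCs, against 439 and 545 in TKO ESCs (log2 change 5.42, SE 0.12, adjusted p = 6.5e-11), and Igf2, the paternally expressed growth factor next to H19, had 2486 and 2151 in TKO NSCs, against 63.4 and 112 in TKO ESCs (log2 change 4.76, SE 0.26, adjusted p = 3.2e-08). All were higher in each NSC library than in each ESC library. H19 changed by 3.73 in TKO and -1.92 in WT (difference 5.66, SE 0.42, adjusted p = 8.3e-07). With all 10 libraries scaled together, H19 had 29479 and 12315 in TKO NSCs, against 1588 and 1292 in TKO ESCs, and 471, 499.9 and 269 in WT NSCs, against 1544, 1595 and 1415 in WT ESCs. Thus H19 was lower in WT NSCs than in WT ESCs and higher in TKO NSCs than in TKO ESCs. Nnat differed by 1.36, SE 0.23, adjusted p = 0.001. Phlda2, a maternally expressed growth-restraining gene of the placenta, had 25.7 and 39.4 in TKO NSCs, against 3875 and 3332 in TKO ESCs (log2 change -6.77, SE 0.27, adjusted p = 3.1e-09).

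Proliferation and metabolism genes changed with the cell type. Of cell cycle genes, 7 rose and 18 fell of 30 tested (median -0.65). This count and those of the lists after it stand beside 35.1% higher and 34.3% lower over all genes. Ccnd2, the D-type cyclin of neural progenitors, had 63590 and 63134 in TKO NSCs, against 1477 and 1665 in TKO ESCs (log2 change 5.34, SE 0.087, adjusted p = 1.9e-11). Cdkn1a, the gene of the inhibitor p21, had 27522 and 23497 in TKO NSCs, against 3147 and 2059 in TKO ESCs (log2 change 3.32, SE 0.10, adjusted p = 4.7e-10), and the inhibitors Cdkn2b and Cdkn2c rose by 3.66 and 4.52. A cyclin and inhibitors of cyclin-dependent kinases were thus higher together. In the p53 and apoptosis list, 15 rose and 3 fell of 20 tested, including Ccng1 with 38165 and 34591 in TKO NSCs, against 8014 and 7838 in TKO ESCs (log2 change 2.20, SE 0.083, adjusted p = 2e-09). Of glycolysis genes, 2 rose and 18 fell of 20 tested (median -1.85 in TKO and -1.47 in WT). Slc2a3, a glucose transporter, had 4941 and 4259 in TKO NSCs, against 69868 and 64467 in TKO ESCs (log2 change -3.87, SE 0.082, adjusted p = 6.3e-11). Pdk1, which restrains entry of pyruvate into mitochondria, had 569 and 351 in TKO NSCs, against 12439 and 11156 in TKO ESCs (log2 change -4.72, SE 0.14, adjusted p = 3e-10), and Pfkp, a phosphofructokinase, had 1102 and 824 in TKO NSCs, against 10316 and 12919 in TKO ESCs (log2 change -3.60, SE 0.15, adjusted p = 3.8e-09). Eno2, the neuronal enolase, rose instead, by 3.37. Against WT, 12 of 20 glycolysis genes had a change lower in TKO, beside 10.04% of all genes, and the other 8 did not pass, with differences for Slc2a3 at -2.09, SE 0.12, adjusted p = 9.6e-08 and Pfkp at -1.90, SE 0.17, adjusted p = 4e-06. Of stress and RNA quality genes, 16 of 20 tested fell. Their summed level was 87199 to 95818 in TKO NSCs, against 146830 to 160560 in TKO ESCs. 9 of the 20 had a change higher in TKO, beside 10.3% of all genes, and the part of stress in the other results was not tested.

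The 12 largest rises by the naming rule included, beside the genes above, St8sia2, the sialyltransferase that makes polysialic acid, with 2250.1 and 1888 in TKO NSCs, against 0 and 4.58 in TKO ESCs (log2 change 9.77, SE 0.64, adjusted p = 1.1e-07). Igfbp5, an IGF binding protein gene, had 31606 and 25988 in TKO NSCs, against 48.2 and 126 in TKO ESCs (log2 change 8.50, SE 0.28, adjusted p = 7.5e-10), and Fbn2, a fibrillin gene, had 26887 and 32084 in TKO NSCs, against 157 and 144 in TKO ESCs (log2 change 7.60, SE 0.12, adjusted p = 1.9e-11). In all 3, each NSC library lay far above each ESC library. Tril, a Toll-like receptor interactor, rose by 7.77, Islr by 7.70 and Rtl5, a retrotransposon-derived gene, by 7.71, although the value of Rtl5 was 5.07 (adjusted p = 3.2e-05) without clone h7 in TKO ESCs. Among the 12 largest falls were Dmrt1, a gonadal factor, with 0 and 5.14 in TKO NSCs, against 1199 and 1325 in TKO ESCs (log2 change -8.99, SE 0.65, adjusted p = 2.3e-07), Nphs1, the nephrin gene, with 4.82 and 6.85 in TKO NSCs, against 3449 and 3229 in TKO ESCs (log2 change -8.95, SE 0.36, adjusted p = 3.2e-09), and Morc1, a germline gene, with 20.1 and 23.99 in TKO NSCs, against 5658 and 4807 in TKO ESCs (log2 change -7.83, SE 0.25, adjusted p = 6.5e-10). Tdrd12, of the germline piRNA pathway, had a log2 change of -7.87 and Zfp981, one of several similar zinc finger genes, one of -7.84. Reads of near-identical copies, such as the related Zfp980, Zfp981 and Zfp988 or Dppa5a and its copies, may be shared.

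The TKO and WT transitions differed at 3130 of 15381 genes tested (20.3%). A change was higher in TKO for 1586 genes (10.3%) and lower for 1544 (10.04%), but without clone c2 in TKO NSCs the counts were 950 and 1111. With equal library totals, 1966 were higher and 1319 lower, or 59.8% higher instead of 50.7%. Most of these genes changed in the same direction in both genotypes: of those higher in TKO, 519 (32.7%) fell in both and 478 (30.1%) rose in both. Of those lower in TKO, 547 (35.4%) rose in both and 367 (23.8%) fell in both. Directions were opposite for 94 genes, which fell in WT and rose in TKO, and for 135 genes, which rose in WT and fell in TKO. Counts of both genotypes come from the same 10-library fit.

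Among the largest differences upward was Clca3a1, of a family of chloride channel regulators, with 622 and 637 in TKO NSCs, against 53.2 and 0 in TKO ESCs and a WT change of -1.37 (difference 7.76, SE 1.58, adjusted p = 0.0032). Leaving out libraries gave 4.90 (adjusted p = 0.00077) without clone h7 in TKO ESCs. Crispld1 had 342 and 257 in TKO NSCs, against 17.7 and 32.1 in TKO ESCs and a WT change of -1.49 (difference 5.06, SE 0.70, adjusted p = 0.00019), and Wdr86 differed by 4.96, SE 0.42, adjusted p = 3.2e-06. Wdr86 had 379 and 323 in TKO NSCs, against 312 and 223 in TKO ESCs, a TKO change that did not pass (0.41, adjusted p = 0.19), against a WT change of -4.56. Jpx, a noncoding RNA gene of the X inactivation centre, had 136 and 191 in TKO NSCs, against 0 and 0 in TKO ESCs, and Samd3 had 178 and 133 in TKO NSCs, against 0 and 0 in TKO ESCs. With 0 reads in TKO ESCs, Jpx was 89.5-fold and Samd3 86.1-fold higher in TKO NSCs, against a floor of 3 reads over the group. Their fitted TKO changes, 7.34 and 7.28, exceeded their differences from WT, 5.27 and 5.37, so both also rose in WT in the fit. Downward, Megf11, a cell surface gene of the nervous system, had 308 and 424 in TKO NSCs, against 184 and 166 in TKO ESCs, while WT changed by 7.09 (difference -6.06, SE 0.47, adjusted p = 1.5e-06). Folr1, a folate receptor gene, had 51.4 and 67.7 in TKO NSCs, against 1962 and 1361 in TKO ESCs (log2 change -4.77, SE 0.29, adjusted p = 6e-08), and the WT change was 0.45 (difference -5.23, SE 0.27, adjusted p = 4.1e-08). Dmrt3, a factor of dorsal telencephalon and spinal cord, had 62.7 and 25.7 in TKO NSCs, against 79.9 and 20.6 in TKO ESCs, with overlapping cell types, and differed by -5.15, SE 0.80, adjusted p = 0.00044. Zbp1, a nucleic acid sensor, had 0 and 0 in TKO NSCs, against 157 and 252 in TKO ESCs, so that it was 167-fold lower in TKO NSCs against the same floor. Its fitted TKO change of -7.64 went beyond its difference from WT of -5.75, so Zbp1 also fell in WT in the fit. Lmx1a, Pax6, Megf11 and Dmrt3 thus rose in WT, and in TKO they rose less or did not pass.

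**Figure D3:**
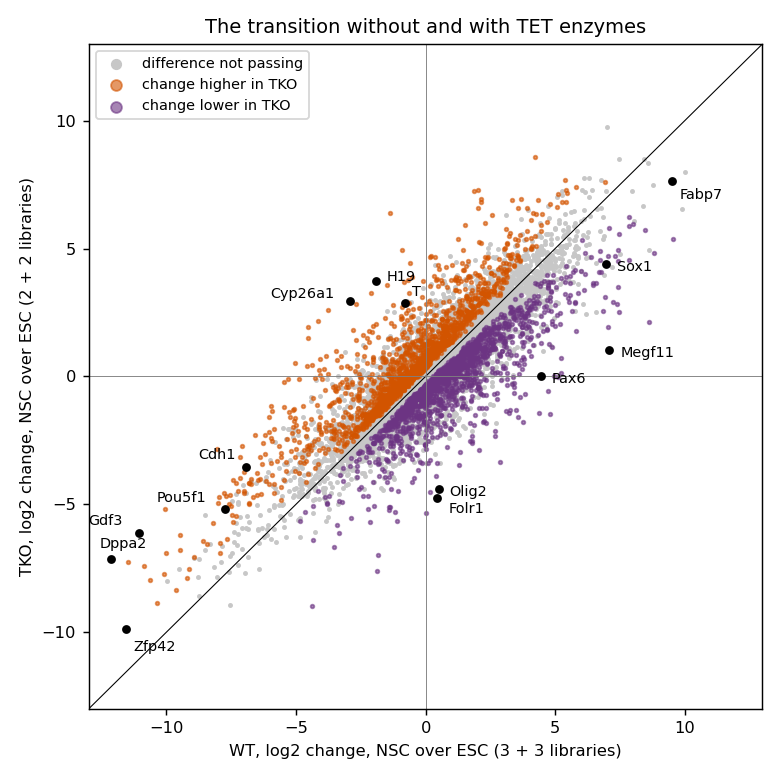
Log2 NSC over ESC change in TKO (vertical axis, 2 NSC and 2 ESC libraries) against WT (horizontal axis, 3 and 3) for 15381 genes on the 10-library scale, coloured where the difference passed. The line marks equal changes, and labelled genes are in black. H19, Cyp26a1 and T lie above 0 in TKO and below it in WT, and Olig2 and Folr1 lie near 0 in WT and below -4 in TKO.

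Both clones showed the same direction for 89.5% of tested genes. The same held for all 10653 that passed, but the error of the test is the disagreement between clones. Genes with opposite clones could thus hardly pass, and this agreement was largely fixed in advance. The median absolute difference between clones was 0.25, against a median absolute change of 0.93 (log2). Among passing genes, 1034 (9.71%) differed between clones by over 1. The first principal component held 90.4% of the variance of the 4 libraries and the second held 5.62%. Across genes, clone c2 and h7 changes had a Pearson r of 0.90, a description over genes that share 4 libraries. Frzb rose by 10.82 in c2 and 6.38 in h7, Lhx2 by 4.81 in c2 and 10.74 in h7, and Zfp42 fell by 8.67 in c2 and 11.07 in h7.

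**Figure D4:**
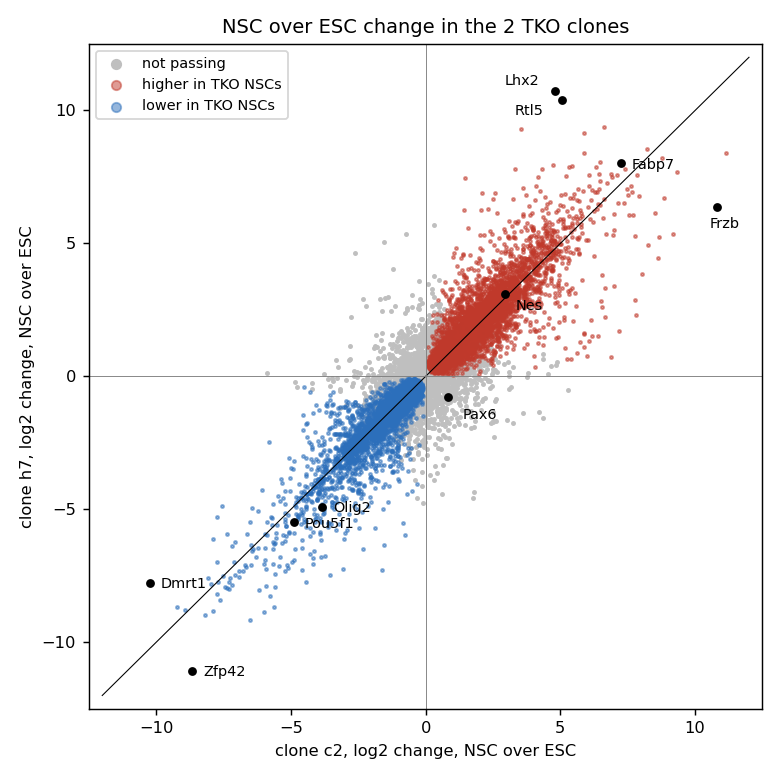
Log2 NSC over ESC change in clone h7 (vertical axis) against clone c2 (horizontal axis) for 15330 genes, in red and blue where the adjusted p was under 0.05. The line marks equal changes. Coloured genes lie in 2 quadrants, which the test with a clone block largely fixes, and Pax6, with 1 clone above 0 and 1 below (labelled genes are in black), did not pass.

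Chromosome 8 differed between the genotypes. Its 781 genes had a median change of -0.011 in TKO and -0.35 in WT, with a median difference of 0.38. Of these 781, 272 had a change higher in TKO and 44 a lower one, beside 10.3% and 10.04% of all 15381 genes tested. The 272 were 17.2% of the 1586 genes whose change was higher in TKO. Chromosome 11 differed between clones, with medians of 0.20 in c2 and -0.063 in h7, and also between the genotypes. Its median difference was 0.16, and of its 1190 genes 186 had a change higher in TKO and 80 a lower one. On the X chromosome the medians were 0.30 in TKO and 0.35 in WT. With libraries centred by chromosome, 5202 genes were higher and 5112 lower in TKO NSCs, and 1520 and 1456 differences passed. Copy number was not tested.

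**Figure D5:**
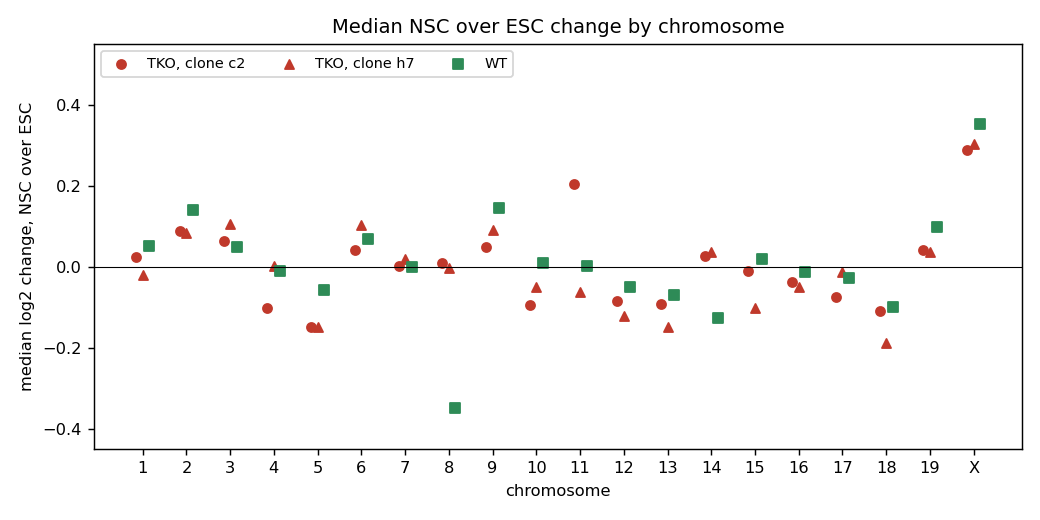
Median log2 NSC over ESC change of the tested genes of each chromosome in TKO clone c2 (red circles), TKO clone h7 (red triangles) and WT (green squares). WT lies at -0.35 on chromosome 8, where both clones are near 0, and clone c2 lies at 0.20 on chromosome 11.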

How the data were processed

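RNA-seq of 10 samples was used, and the bisulfite, CUT&Tag and promoter capture samples were not analysed here. The authors deposited a signal for each cell type in its own table: read counts per gene divided by DESeq2 size factors, per the labels. Per the submitters' processing notes, the build was mm10 and the tools included STAR 2.7.3a, DESeq2 1.40.2, featureCounts and Trim Galore 0.6.5. Reads were recovered by dividing by each library's step. 100% of values were whole within 1e-06, and 75.2% to 82.7% of low values were even. The lowest listed total per gene was 51 reads in each table, so genes listed in 1 table were not tested. Of 15381 genes in both tables, 95.0% matched the GRCm38.p6 gene table. 0 columns were left unused.

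The recovered reads were scaled by the median of ratios, over 4 TKO libraries or, for TKO against WT, over 10. The main test was limma 3.58.1 (trend, R 4.3.3) on log2(value + 1), two-sided and Benjamini-Hochberg adjusted, on genes whose mean was 10 or more. The TKO fit has clone as a block and 1 residual degree of freedom per gene. Pairing comes from the clone codes in the labels. Across genes, the c2 minus h7 difference in ESCs and in NSCs correlated with r = 0.024, and without the block 5323 genes were higher and 5220 lower. TKO minus WT was tested as a difference of changes over 4 groups without a block. In the TKO fit the p-values rest on how far the change differed between the clones, moderated over all genes. In the difference fit they rest on the spread between libraries within the 4 groups, and the WT codes may stand for lines or for cultures. Counting errors alone underlie floors of 3 reads, taken as independent counts. Most low values were even, so reads may have been counted in pairs, and folds against these floors are then too high as lower bounds. The log2(value + 1) scale understates changes of low genes. The tests were also run on simulated reads in which few genes were changed. That run does not show how the tests behave when as many genes change as here.

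Alternatives included edgeR 4.0.16 and DESeq2 1.42.0 on recovered reads. Named genes are a fixed set of Tet, pluripotency, neural and methylation genes, the 12 largest passing changes per direction in TKO, the 10 largest differences per direction (a level of at least 100 reads in both cases), up to 4 passing members of each of 35 lists, and the 6 highest genes of each table alone. Members and lists were chosen with earlier results of these data known. Some named genes are not reported here.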

Additional observations from a re-analysis of the deposited data

Results flagged for a closer look

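The NSC over ESC change differed between TKO and WT, by the limma test of the difference, for many of the genes named above. Values here are TKO minus WT differences of log2 change, and nothing about their cause was tested.

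Among pluripotency, epithelial and methylation genes, the difference was 2.55 for Pou5f1, 1.91 for Nanog, -1.33 for Sox2, 5.02 for Dppa2, 3.42 for Cdh1 and 2.42 for Dnmt3b. The targeted genes differed by 0.69 (Tet1) and 0.69 (Tet2). The call for Tet1 was lost at 0.62 to 0.65 (adjusted p = 0.051 to 0.061) without clone c2 in TKO ESCs or clone h7 in TKO NSCs, and that for Tet2 at 0.48 to 0.72 (adjusted p = 0.052 to 0.15) without clone c2 in TKO ESCs, clone h7 in TKO ESCs, clone h7 in TKO NSCs, WT line 1 in ESCs or WT line 3 in NSCs. For Nanog it was lost at 1.31 to 1.84 (adjusted p = 0.055 to 0.10) without clone h7 in TKO ESCs or clone c2 in TKO NSCs.

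Among neural genes, the difference was -4.44 for Pax6, -4.89 for Olig2, -3.61 for Gfap, -1.16 for Vim, -0.44 for Nes, -2.58 for Sox1, -1.89 for Fabp7 and 0.58 for Tubb3. Without some libraries the calls of Nes, Sox1 and Fabp7 were lost, as given above, and that of Tubb3 was 0.49 to 0.56 (adjusted p = 0.052 to 0.095) without clone c2 in TKO ESCs, clone c2 in TKO NSCs, WT line 2 in ESCs, WT line 1 in NSCs or WT line 2 in NSCs. Tubb3 lies on chromosome 8, and after centring on chromosome medians its difference was 0.23 (adjusted p = 0.39). For Pax6 the clones also changed in opposite directions, with a c2 minus h7 difference of 1.61 that was not tested.

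The imprinted RNA H19 differed by 5.66. The other large differences upward were 7.76 for Clca3a1, 6.32 for Gzme, 5.88 for Slc15a2, 5.85 for Cyp26a1, 5.37 for Samd3, 5.27 for Jpx, 5.06 for Crispld1 and 4.96 for Wdr86. Clca3a1 was 4.90 (adjusted p = 0.00077) without clone h7 in TKO ESCs. Gzme, a granzyme gene with close relatives, had 124 and 120.0 in TKO NSCs, against 48.2 and 13.8 in TKO ESCs, and Slc15a2, a peptide transporter gene, had 105 and 102 in TKO NSCs, against 10.1 and 0 in TKO ESCs.

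The large differences downward were -6.50 for Ecrg4, -6.29 for Lrtm2, -6.23 for Cyp24a1, -6.06 for Megf11, -5.81 for Pnpla3, -5.75 for Zbp1, -5.54 for Tmem132d, -5.23 for Folr1, -5.15 for Notumos and -5.15 for Dmrt3. Ecrg4 had 59.5 and 196 in TKO NSCs, against 35.5 and 16.04 in TKO ESCs. On the 10-library scale it had 2366, 2251 and 1681 in WT NSCs, against 0, 2.37 and 42.5 in WT ESCs. Across alternatives the difference of Ecrg4 ran from -8.04 to -4.84, the latter with edgeR. Lrtm2 had 16.1 and 34.3 in TKO NSCs, against 77.3 and 58.4 in TKO ESCs. Cyp24a1, which degrades vitamin D, had 0 and 3.43 in TKO NSCs, against 20.3 and 20.6 in TKO ESCs, and Pnpla3, a lipid enzyme gene, had 38.6 and 17.1 in TKO NSCs, against 59.6 and 84.8 in TKO ESCs. Notumos is the antisense partner of Notum, and reads of the pair may not be told apart. For Dmrt3 the clones changed in opposite directions, with an untested c2 minus h7 difference of -0.65. Fitted differences of genes with a group at 0 reads, such as Dppa2, Jpx, Samd3 and Zbp1, depend on the pseudocount and are no bounds.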

How the results depend on the processing

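The counts of genes higher and lower in TKO NSCs stayed within 1.5 times of 5388 and 5265 in every alternative run. Leaving out 1 library in turn, which also drops the clone block, gave 4470 to 5209 higher and 4612 to 4937 lower genes, beside 5323 and 5220 with all 4 libraries and no block. Leaving out 1 of 10 gave 950 to 1599 differences higher and 1111 to 1677 lower in TKO. The low value of 950 came without clone c2 in TKO NSCs. Equal library totals gave 7026 higher and 3821 lower genes, and 1942 instead of 2991 that were at least 2-fold lower. edgeR called 5423 higher and 4971 lower, and DESeq2 called 4870 and 4809. With a block by line 1487 and 1420 differences passed. Over named genes and alternatives, 5033 values stayed in direction and on their side of the threshold, 150 lost it, 81 gained it and 3 turned in sign. The change of Tubb3 was 0.13 with equal totals. Leaving out 1 library in turn, the difference ran from -1.71 (without clone h7 in TKO ESCs) to 3.58 (without clone c2 there) for Rtl5, and from -2.41 (without clone c2 in TKO ESCs) to 2.35 (without clone h7 there) for Nkx2-2, and the cause was not tested. Of list medians, 420 moved by less than the clone spread and 105 by more.

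With 2 clones, effects that differ between TKO clones cannot be told from noise. Genes under 51 reads in a table are not listed, so loss or gain of low genes is not measured. DESeq2 was not run for the differences.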

Other observations

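Chromatin and cell surface genes were not described above. Of chromatin regulators, 10 rose and 15 fell of 27 tested, beside 35.1% higher and 34.3% lower over all genes. Smarca2, the BRM ATPase of BAF remodelling complexes, had 3908 and 2947 in TKO NSCs, against 104 and 110 in TKO ESCs (log2 change 4.98, SE 0.20, adjusted p = 3.1e-09). Smarcd3, another BAF subunit, had 1793 and 1877 in TKO NSCs, against 165 and 206 in TKO ESCs (log2 change 3.31, SE 0.19, adjusted p = 4.5e-08). Cbx7, the Polycomb chromobox protein of ESCs, had 681 and 658 in TKO NSCs, against 9610.2 and 8971 in TKO ESCs (log2 change -3.79, SE 0.11, adjusted p = 2.8e-10), and Jarid2, a cofactor of PRC2, had 2867 and 3086 in TKO NSCs, against 28682 and 25630 in TKO ESCs (log2 change -3.19, SE 0.093, adjusted p = 3.2e-10). Smarca2 and Smarcd3 were thus higher and Cbx7 and Jarid2 lower in both TKO NSC libraries. They were named for the largest changes of the list and do not stand for their complexes. Their WT changes were 5.22 for Smarca2, 3.67 for Smarcd3, -4.54 for Cbx7 and -3.25 for Jarid2.

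Of clustered protocadherins, which give neurons their surface identity, 4 of 6 tested rose, and 8 more were listed in NSCs alone. Pcdhb22 had 519 and 648 in TKO NSCs, against 5.07 and 2.29 in TKO ESCs (log2 change 7.02, SE 0.57, adjusted p = 6.8e-07), and Pcdhgc3 had 2741 and 3056 in TKO NSCs, against 139 and 144 in TKO ESCs (log2 change 4.34, SE 0.18, adjusted p = 3.9e-09). Reads of these similar genes may be shared. Of MHC class I and interferon genes, 5 rose and 8 fell of 21 tested, also beside 35.1% and 34.3% (5 fell without clone c2 in TKO ESCs and the clone block). The interferon-induced Bst2 had 1476 and 1356 in TKO NSCs, against 4508 and 3769 in TKO ESCs (log2 change -1.54, SE 0.11, adjusted p = 2e-07) and H2-K1, an MHC class I heavy chain gene, had 1409 and 1693 in TKO NSCs, against 2602 and 3282 in TKO ESCs (log2 change -0.92, SE 0.11, adjusted p = 1.7e-05), both picked after their values were seen. B2m, the light chain of MHC class I, had 4124 and 3659 in TKO NSCs, against 689.5 and 587 in TKO ESCs (log2 change 2.61, SE 0.12, adjusted p = 9.3e-09), and Tap1, the peptide transporter that loads it, had 1912 and 1613 in TKO NSCs, against 251 and 179 in TKO ESCs (log2 change 3.05, SE 0.19, adjusted p = 7e-08). Of extracellular matrix and adhesion genes, 17 rose and 5 fell of 25 tested, again beside 35.1% and 34.3%. Col2a1, a collagen gene of cartilage and early neural tissue, had 8749.6 and 11054 in TKO NSCs, against 544 and 426 in TKO ESCs (log2 change 4.35, SE 0.15, adjusted p = 1.1e-09), and Acan, the aggrecan gene, had 27.3 and 11.99 in TKO NSCs, against 678 and 928 in TKO ESCs (log2 change -5.37, SE 0.45, adjusted p = 8.4e-07).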
